A study of Mus musculus with 18 samples.

Results

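The 4 tissue inhibitors of metalloproteinases (Timp1, Timp2, Timp3 and Timp4), 5 secreted ADAMTS proteases (Adamts1, Adamts2, Adamts4, Adamts5 and Adamts9) and the membrane protease gene Adam19 were followed across cultures of mouse hepatic stellate cells (HSC) and intrahepatic cholangiocyte organoids (ICO). They are 10 of the 35667 genes of the deposited table and were taken by name. All 10 have a row, and 9 passed the low-count filter in at least 1 comparison. Timp4 passed in none.

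TIMPs are small secreted proteins that block metalloproteinases by filling the active site. Timp1 and Timp2 act mainly in solution, whereas Timp3 is held in the matrix and also inhibits ADAMTS and ADAM enzymes. ADAMTS proteases are secreted enzymes that carry thrombospondin repeats: Adamts1, Adamts4, Adamts5 and Adamts9 cleave proteoglycans such as versican and aggrecan, and Adamts2 removes the amino-terminal propeptide of fibrillar procollagens. Adam19 is anchored in the membrane and sheds the outer part of other membrane proteins. In liver, HSC store retinoids when quiescent, and after injury they turn into matrix-producing cells and are a known source of Timp1.

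The 18 bulk libraries form 6 groups of 3. HSC came from healthy wild-type mice and were collected directly after isolation (day 0), after 7 days on plastic, after 7 days alone in Matrigel (a basement membrane gel), or after 7 days in Matrigel together with ICO. ICO, organoids of bile duct cells of the liver tagged with dTomato, were collected after 7 days in Matrigel, alone or from the same co-culture as the HSC. The labels give 1 medium for all cultures, a mixture of serum-containing DMEM and organoid medium with EGF, FGF10, HGF and RSPO3, and after the 7 days in Matrigel the cell types were isolated by sorting. No label ties replicates to different animals or cultures, so the p-values measure the spread between these libraries, which may be technical. The titles of co-cultured HSC and ICO share their codes, and whether libraries of the same code come from 1 gel is not stated. The main tests took all libraries as independent.

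Timp1 and Adam19 were the members whose levels were highest in the same 2 groups, HSC on plastic and co-cultured HSC, and their promoters are shown for that reason. The sequences are from RefSeq (mouse build GRCm38.p6), run 5′ to 3′ on the gene's strand and cover 250 bases before to 50 bases after an annotated transcript start. Capitals mark matches to a motif of AP-1 (TGANTCA) or TEAD (GGAATG), searched on both strands. The Timp1 promoter is at chrX:20869916-20870215 (plus strand), and the second of 3 annotated Adam19 promoters is at chr11:46055734-46056033 (plus strand).
Timp1: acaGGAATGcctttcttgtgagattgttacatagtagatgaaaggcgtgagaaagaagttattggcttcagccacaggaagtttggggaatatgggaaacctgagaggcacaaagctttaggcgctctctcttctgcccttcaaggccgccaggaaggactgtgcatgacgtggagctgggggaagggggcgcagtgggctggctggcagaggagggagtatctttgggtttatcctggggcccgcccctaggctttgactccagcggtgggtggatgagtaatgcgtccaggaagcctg
Adam19, promoter 2: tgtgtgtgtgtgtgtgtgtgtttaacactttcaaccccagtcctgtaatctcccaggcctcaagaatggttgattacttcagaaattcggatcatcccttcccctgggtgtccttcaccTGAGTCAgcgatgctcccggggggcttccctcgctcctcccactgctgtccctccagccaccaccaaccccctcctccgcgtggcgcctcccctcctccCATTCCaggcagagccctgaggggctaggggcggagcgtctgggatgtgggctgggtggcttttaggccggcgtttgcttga
The Timp1 window holds 1 TEAD match at -247 and no match to the AP-1 motif as spelled. Strings that differ from TGANTCA by a letter were not searched for. The Adam19 window holds 1 AP-1 match at -131 and 1 TEAD match at -32, on the opposite strand. Across 32851 promoters of the same length, 7.81% hold the AP-1 motif and 14.7% the TEAD motif. Of the 10 members, 8 had an entry, with 10 promoters in all, and no other one holds either motif, including the other 2 promoters of Adam19. The SP1 motif (GGGCGG, both strands, no overlap with the other motifs) is in 35.7% of all promoters and in those of Timp1, Timp2, Timp3, Adamts1, Adamts2, Adamts9 and Adam19 promoter 2, with 5 matches at Adamts2. A match is a string of letters and was not tested as a binding site.

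Library totals ranged from 6907479 to 22158674 estimated counts. The HSC libraries were checked against marker lists, and RNA of other cells moved with the culture. The organoid share of a library is the median, over 12 cholangiocyte genes, of the gene's level relative to its mean in ICO from that culture. HSC alone in Matrigel had shares of 32.5%, 13% and 3.84% (replicates 1, 2 and 3), and co-cultured HSC 28.6%, 15% and 42.1%. Libraries from day 0 and plastic had at most 0.284%. That follows from the choice of genes, which had to be below 5 CPM in all of these libraries. Krt8, left out by this rule, had 56.1 to 67.9 CPM at day 0 and 5850 to 7130 in ICO alone. By its label the culture of HSC alone in Matrigel held no ICO, so "HSC alone in Matrigel" means the libraries so labelled. Summed macrophage markers (14 genes) had 2483 to 3420 CPM (counts relative to the scaled library total) in HSC alone in Matrigel. They had 918 to 964 CPM at day 0, 114 to 513 on plastic and 129 to 206 in co-culture. Most of the Matrigel sum was Lyz2, with 1980 to 2770 CPM there and 170 to 177 at day 0. Against day 0, 5 of the 14 were higher alone in Matrigel and 3 lower (edgeR quasi-likelihood test, adjusted p under 0.05). Over all genes 19.3% were higher and 21.5% lower. The median log2 change of the 14 was -0.15, over all genes 0.09. Clec4f, which marks resident liver macrophages, had 229 to 248 CPM at day 0 and at most 0.396 CPM alone in Matrigel. On plastic and in co-culture it had 0 counts. Hepatocyte markers (10 genes) gave 17570 to 18060 CPM at day 0, and no cultured HSC library exceeded 143 CPM. Endothelial markers (10 genes) gave 1210 to 1223 CPM and later no more than 66.2 CPM. The 12 stellate markers were all detected in every HSC group. Their sums were 80900 to 94510 CPM at day 0 and 6883 to 11690 on plastic. Alone in Matrigel they were 26050 to 47950 CPM, and in co-culture 6353 to 9826. Most of the day 0 sum was Dcn (45200 to 53300 CPM) and Ecm1 (23600 to 29000 CPM). On plastic 10 of the 12 were lower than at day 0, beside 30.5% of all genes lower. Des (243 to 272 CPM at day 0, 255 to 358 on plastic) and Hand2 (21.2 to 29.4 and 32.9 to 36.8) had no lower level on plastic. In co-culture 11 of the 12 were lower than at day 0, beside 24.8% of all genes. Alone in Matrigel 9 were lower than at day 0 and 1 higher, beside 21.5% and 19.3%. Against Matrigel alone, 8 were lower in co-culture and 1 higher, beside 13.8% and 17.3%. In ICO the 12 markers summed to at most 1177 CPM and Hand2 was at 0.

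**Figure D1:**
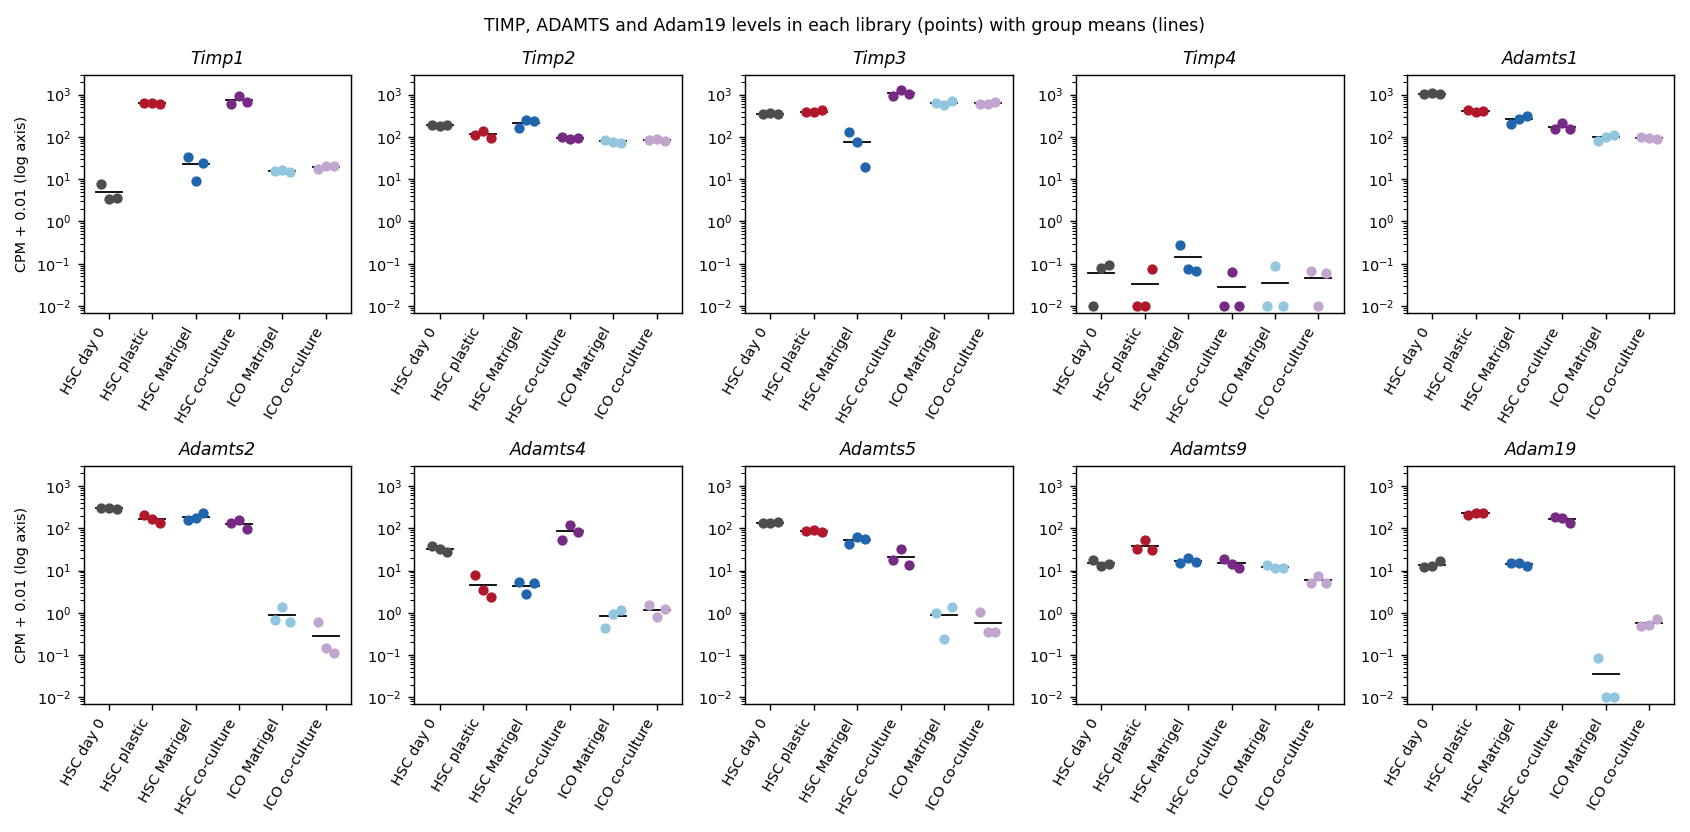
Level of each member in each library, as CPM + 0.01 on a log axis, with 3 points per group and a line at the group mean. Timp1 and Adam19 are high in HSC on plastic and in co-culture, Adamts4 is highest in co-cultured HSC (53.4 to 118 CPM), and Timp4 is at most 0.273 CPM in every library.

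Most tested members differed between HSC states, in both directions. On plastic, 3 of 9 tested members were higher than at day 0 (Timp1, Adamts9 and Adam19) and 5 lower (Timp2, Adamts1, Adamts2, Adamts4 and Adamts5), in a comparison where 58% of 17020 genes were called (27.5% higher and 30.5% lower; edgeR quasi-likelihood test, adjusted p under 0.05). Alone in Matrigel, Timp1 was higher than at day 0 and 5 members were lower (Timp3, Adamts1, Adamts2, Adamts4 and Adamts5), where 40.8% of all genes were called (19.3% higher and 21.5% lower). With ICO in the gel, 4 members were higher than in HSC alone in Matrigel (Timp1, Timp3, Adamts4 and Adam19) and 3 lower (Timp2, Adamts1 and Adamts5), where 31.1% of genes were called (17.3% higher and 13.8% lower). HSC alone in Matrigel had 1 member above plastic (Timp2) and 6 below it, where 55% of genes were called (29.9% higher and 25.2% lower). Against day 0, co-cultured HSC had 4 members higher (Timp1, Timp3, Adamts4 and Adam19) and 4 lower (Timp2, Adamts1, Adamts2 and Adamts5), where 53.7% of genes were called (28.9% higher and 24.8% lower). Against plastic they had 2 higher (Timp3 and Adamts4) and 4 lower (Adamts1, Adamts5, Adamts9 and Adam19), where 42.5% were called (22.9% higher and 19.6% lower). In ICO, 1 of 7 tested members, Adamts9, was lower in co-culture than alone, where 16.6% of 13726 genes were called (8.59% higher and 7.96% lower). These comparisons share groups, so their counts are not independent of each other. In bulk RNA, a change in the number of cells of a type and a change in RNA per cell cannot be told apart.

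**Figure D2:**
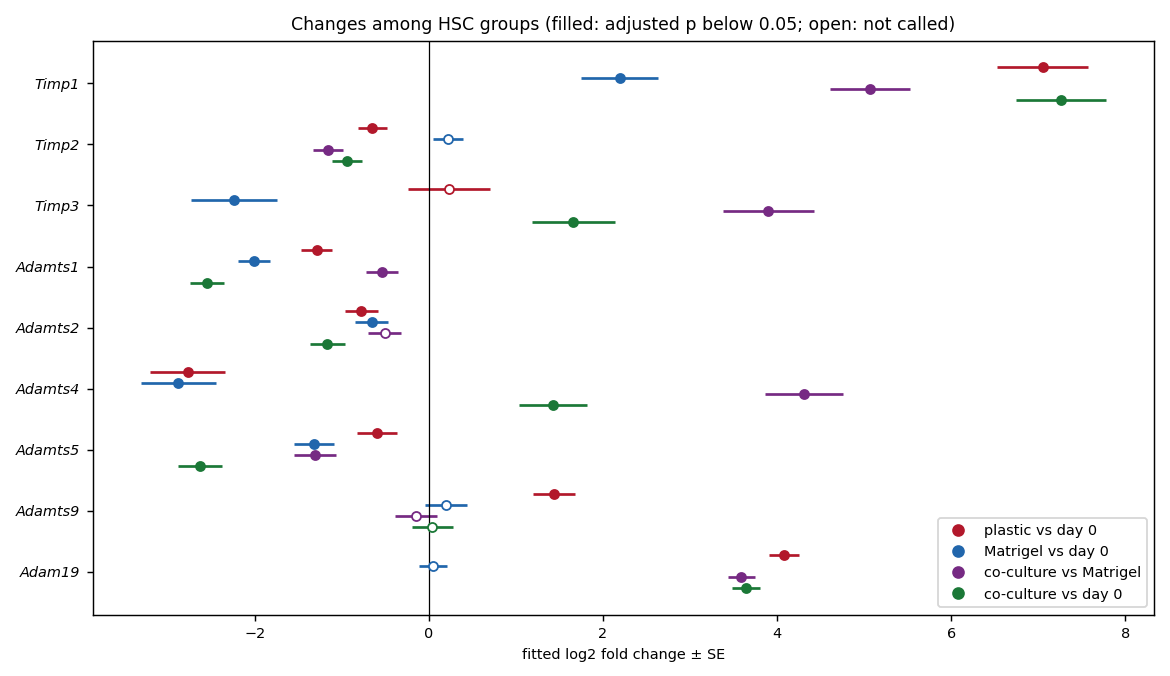
Fitted log2 fold changes of the 9 tested members between HSC groups, with bars of 1 SE, for plastic, Matrigel and co-culture against day 0 and for co-culture against Matrigel alone. Filled points passed an adjusted p of 0.05. Timp1 and Adam19 lie to the right in all 4 comparisons, Adam19 by only 0.05 for Matrigel against day 0, which is not filled. Adamts1, Adamts2 and Adamts5 lie to the left in all 4. The Adamts2 point for co-culture against Matrigel alone is not filled.

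Timp1 (ENSMUSG00000001131, chromosome X), the inhibitor most tied to liver fibrosis, had the widest range of the TIMPs that were tested. At day 0 it had 7.74, 3.41 and 3.63 CPM in replicates 1 to 3, and on plastic 630, 653 and 586 CPM. HSC alone in Matrigel had 33.6, 9.1 and 24.2 CPM, and co-cultured HSC had 600, 909 and 680 CPM. The plastic and co-culture libraries thus form a high set that overlaps, and every other library is at or below 33.6 CPM. ICO had 15.7, 16.5 and 15 CPM alone and 17.4, 21.1 and 20.4 CPM in co-culture, within the range of HSC alone in Matrigel.

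Timp1 rose on plastic by 7.05 ± 0.52 (log2 fold change ± SE, 133-fold, adjusted p = 7.12e-07). Alone in Matrigel it rose by 2.19 ± 0.44 against day 0 (adjusted p = 0.00253) and was 29.1-fold below plastic. In co-culture it was higher than in Matrigel alone by 5.07 ± 0.46 (33.7-fold, adjusted p = 1.55e-05) and 154-fold above day 0. Co-culture and plastic differed by 0.21 ± 0.39, which did not pass (adjusted p = 0.691). The ICO contribution was small by the share estimate: organoid share times ICO level came to 2.95 to 8.25 CPM of the 600 to 909 CPM in co-cultured HSC. HSC and ICO alone in Matrigel differed by 0.57 ± 0.34 (adjusted p = 0.179), and without HSC Matrigel replicate 2, the lowest of its group, the difference was 0.93 and passed (adjusted p = 0.00178). The overlapping gene Syn1 had 0.084 to 5.18 CPM in all libraries.

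Timp2 (ENSMUSG00000017466, chromosome 11), which besides inhibiting proteases takes part in the activation of pro-Mmp2 at the cell surface, moved the other way and less. It had 192, 184 and 192 CPM at day 0, 111, 140 and 96.8 on plastic, 165, 255 and 239 alone in Matrigel, and 102, 89.7 and 94.4 in co-culture. Day 0 and HSC alone in Matrigel overlap at the top, and plastic and co-culture overlap below them. Timp2 fell on plastic against day 0 (log2 change -0.65 ± 0.17, adjusted p = 0.00499) and was lower in co-culture than in Matrigel alone (-1.16 ± 0.17, adjusted p = 0.00021). Co-culture was also below day 0 (-0.94 ± 0.17, adjusted p = 0.000421), though not past the threshold with the organoid share as a covariate (-0.65, adjusted p = 0.0794). The difference between Matrigel and day 0 was 0.22 ± 0.17 (adjusted p = 0.32). In co-cultured HSC, organoid share times ICO level made up 24%, 14.3% and 38.1% of the Timp2 level, and without ICO in the culture 15.4%, 4% and 1.26%. ICO had 73 to 89.8 CPM over both cultures, and HSC alone in Matrigel were 2.98-fold above ICO alone (adjusted p = 4.09e-06).

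Timp3 (ENSMUSG00000020044, chromosome 10), the matrix-bound TIMP, was the member whose level in HSC alone in Matrigel was closest to what the organoid share would carry. It had 350, 364 and 348 CPM at day 0, 381, 386 and 428 on plastic, and 931, 1280 and 1041 in co-cultured HSC. HSC alone in Matrigel had 130, 76.1 and 19.3 CPM in replicates 1, 2 and 3, in the order of their organoid shares of 32.5%, 13% and 3.84%. ICO had 639, 570 and 711 CPM alone and 619, 609 and 662 in co-culture. Co-cultured HSC therefore lie above every ICO library, and HSC alone in Matrigel lie below every other library.

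Timp3 was 14.9-fold higher in co-cultured HSC than in HSC alone in Matrigel (log2 3.9 ± 0.52, adjusted p = 0.000297) and lower in Matrigel than at day 0 (-2.24 ± 0.49, adjusted p = 0.00437). Without Matrigel replicate 1 these differences were 4.55 and -2.89, and with the organoid share as a covariate the second was -2.99. The drop against day 0 did not pass when only the libraries compared were fitted (adjusted p = 0.0598). Organoid share times the ICO level gave 208, 83.4 and 24.6 CPM for the 3 libraries of HSC alone in Matrigel, at or above the 130, 76.1 and 19.3 CPM measured. After subtraction of that part no Timp3 was left in any of them. In co-cultured HSC the same product was 180, 94.7 and 265 CPM, that is 19.3%, 7.4% and 25.5% of the measured level, and the remainder per HSC share was 1052, 1395 and 1339 CPM.

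Against day 0, Timp3 was higher in co-culture by 1.66 ± 0.48 (adjusted p = 0.0132), and it was 0.76 and did not pass with the organoid share as a covariate (adjusted p = 0.416). Against plastic it was higher in co-culture by 1.43 ± 0.47 (adjusted p = 0.0325), although the 3 libraries of each group do not overlap. That call was lost when any 1 of the 6 libraries was left out (adjusted p from 0.0599 to 0.0992) and with the organoid share as a covariate (0.53, adjusted p = 0.609). Plastic and day 0 differed by 0.23 ± 0.47 (adjusted p = 0.7), and by 0.24 with an adjusted p of 0.02 when only those 6 libraries were fitted. The overlapping gene Syn3 had 0.58 to 13.5 CPM. Timp4 (ENSMUSG00000030317, chromosome 6) had between 0 and 4.09 counts per library, with 4.09 in HSC Matrigel replicate 1, and was at most 0.273 CPM, too low for a test.

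**Figure D3:**
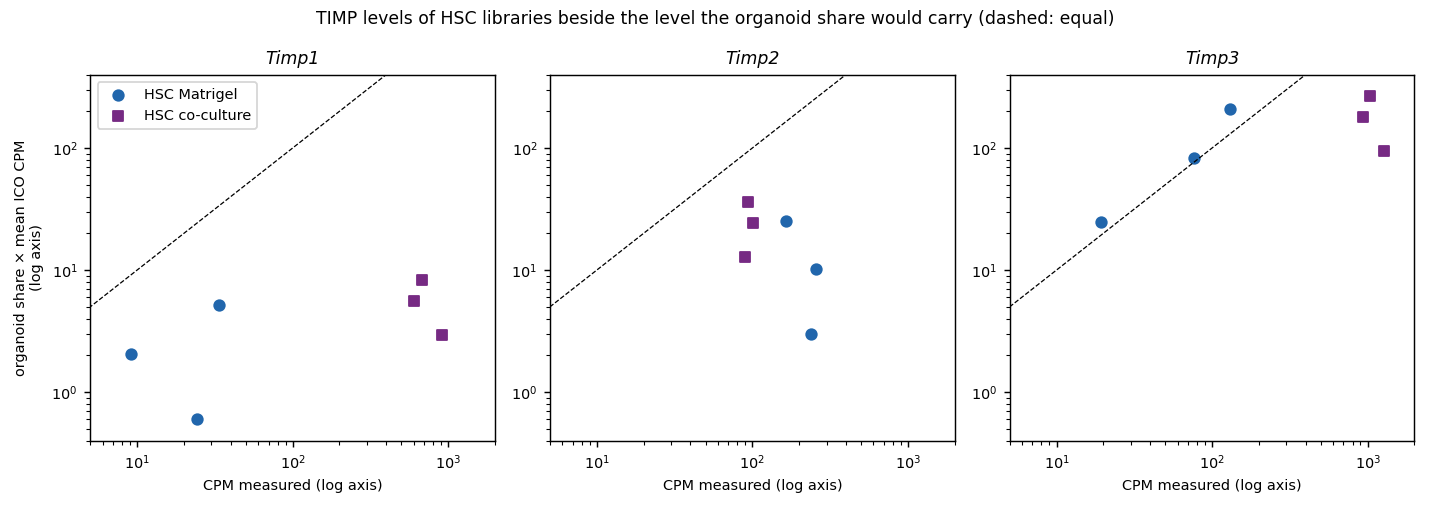
Measured level of Timp1, Timp2 and Timp3 in each HSC library from Matrigel (horizontal, CPM, log axis) against organoid share times mean ICO level (vertical, CPM, log axis), with a dashed line where both are equal. The 3 libraries of HSC alone in Matrigel lie on or above the line for Timp3, and all other points lie below it.

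Compared per kilobase of the longest coding transcript (GENCODE vM21), so that lengths do not enter, the TIMP make-up differed between groups. Timp1 made up 2.96% to 6.51% of the summed TIMP level at day 0, 85% to 86.6% on plastic and 75.1% to 77.7% in co-cultured HSC. Timp3 was the largest part at day 0 (55.1% to 59%) and in ICO (75.3% to 80.4% alone and 72.8% to 75.8% in co-culture). In HSC alone in Matrigel the largest part was Timp2, with 40.3% to 72.2%. As group means, Timp1 had 5.58 CPM per kilobase at day 0, 706 on plastic and 826 in co-culture, beside 75, 84.3 and 230 for Timp3 and 51.1, 31.2 and 25.7 for Timp2. The transcript actually used in each cell was not measured, so levels of different genes are approximate.

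**Figure D4:**
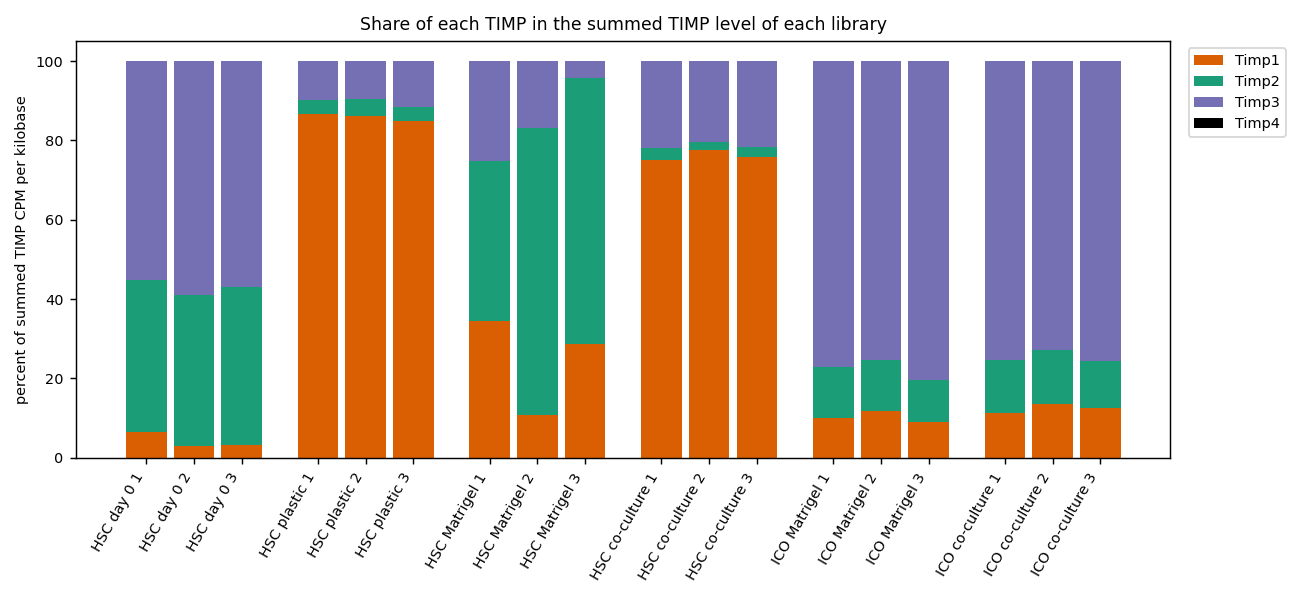
Share of each TIMP in the summed TIMP level (CPM per kilobase) of each of the 18 libraries, as stacked bars. Timp1 fills 75.1% to 86.6% of the bars of HSC on plastic and in co-culture, and Timp3 72.8% to 80.4% of the ICO bars.

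Adamts1 (ENSMUSG00000022893, chromosome 16), a protease that cleaves versican, was the most abundant member at day 0, where it had 216 CPM per kilobase beside 75 for Timp3. It had 1047, 1072 and 1042 CPM at day 0, 444, 386 and 413 on plastic, 197, 271 and 314 alone in Matrigel and 157, 214 and 151 in co-culture. Every cultured HSC library lay below every day 0 library. Against day 0, Adamts1 fell in all 3 cultures, with log2 changes of -1.29 ± 0.18 on plastic (adjusted p = 3.19e-05), -2.01 ± 0.18 in Matrigel (1.55e-06) and -2.55 ± 0.19 in co-culture (1.01e-07). Co-culture was below plastic (-1.26 ± 0.18, adjusted p = 0.000108). With the organoid share as a covariate these co-culture changes were -1.96 and -0.67 and passed. Its level in co-culture overlaps that in Matrigel alone: the difference of -0.54 ± 0.18 passed (adjusted p = 0.0308) but not without co-culture replicate 1 or 3 (0.0936 and 0.113) or Matrigel replicate 2 or 3 (0.0867 and 0.141). Nor did it pass with only those 6 libraries (0.0745) or with the organoid share as a covariate (0.134). ICO had 81.2 to 113 CPM alone and 89.1 to 99.3 in co-culture, and HSC alone in Matrigel were 2.79-fold above ICO alone.

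Adamts5 (ENSMUSG00000022894, chromosome 16), an aggrecan- and versican-cleaving protease whose gene lies next to Adamts1, had a like order of groups in HSC. It had 136, 133 and 137 CPM at day 0, 86.4, 92.2 and 79.7 on plastic, 42, 63 and 56.7 alone in Matrigel and 18, 31.4 and 13.8 in co-culture. None of these 4 groups overlaps another. Adamts5 was lower in co-culture than in Matrigel alone (log2 change -1.31 ± 0.24, adjusted p = 0.00123), on plastic (-2.04 ± 0.24, adjusted p = 4.09e-05) and at day 0 (-2.63 ± 0.25, 6.2-fold, adjusted p = 1.8e-06). The last 2 changes were -1.25 and -1.85 with the organoid share as a covariate and passed. The change on plastic against day 0 was -0.6 ± 0.23 (adjusted p = 0.041) and did not pass when any 1 of those 6 libraries was left out (adjusted p from 0.0672 to 0.121). Matrigel lay below plastic (-0.73 ± 0.23, adjusted p = 0.018), and not past the threshold without Matrigel replicate 1 (0.0586) or with the organoid share as a covariate (0.242). ICO had 0.233 to 1.34 CPM over both cultures.

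Adamts4 (ENSMUSG00000006403, chromosome 1), the other aggrecan-cleaving protease, stood apart from Adamts1 and Adamts5 by its level in co-culture. It had 37.8, 31.8 and 27.6 CPM at day 0, and only 7.91, 3.44 and 2.38 on plastic and 5.44, 2.79 and 4.95 alone in Matrigel. Co-cultured HSC had 53.4, 118 and 81.2 CPM, all above day 0. Against day 0, Adamts4 fell on plastic (log2 change -2.77 ± 0.43, adjusted p = 0.000167, and -3.38 without plastic replicate 1) and in Matrigel (-2.88 ± 0.43, adjusted p = 0.000292). In co-culture it was 19.8-fold higher than in Matrigel alone (4.31 ± 0.45, adjusted p = 3.09e-05) and 18.3-fold higher than on plastic (4.8 in place of 4.2 on the log2 scale without plastic replicate 1). Against day 0 co-culture was higher by 1.43 ± 0.39 (adjusted p = 0.00869), and by 1.62 with an adjusted p of 0.0621 with the organoid share as a covariate. ICO had 0.432 to 1.55 CPM, so organoid share times ICO level came to at most 0.498 CPM in co-cultured HSC.

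Adamts2 (ENSMUSG00000036545, chromosome 11), the procollagen N-proteinase, was expressed in HSC of every state and near 0 in ICO. It had 309, 298 and 291 CPM at day 0, 202, 168 and 132 on plastic, 160, 179 and 226 alone in Matrigel and 132, 156 and 97 in co-culture. The 3 cultured groups overlap in a row and lie below day 0. Against day 0, Adamts2 fell on plastic (log2 change -0.78 ± 0.19, adjusted p = 0.00356) and in co-culture (-1.17 ± 0.2, adjusted p = 0.000208, and -0.62 with the organoid share as a covariate, adjusted p = 0.0531). In Matrigel the change was -0.66 ± 0.19 (adjusted p = 0.0152), a call lost without Matrigel replicate 1 (0.0527) or 2 (0.0537) and after subtraction of the organoid part (0.0609) or with its share as a covariate (0.159). Co-culture and Matrigel alone differed by -0.51 ± 0.19 (adjusted p = 0.0606), which passed without Matrigel replicate 1 (0.0314) or co-culture replicate 2 (0.0354) and with DESeq2 (0.0347). In ICO it had 0.588 to 1.39 CPM alone and 0.0998 to 0.588 in co-culture, and HSC alone in Matrigel were 225-fold above ICO alone (adjusted p = 5.42e-08).

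Adamts9 (ENSMUSG00000030022, chromosome 6), a versican-cleaving protease, was the member with a call in the organoids. ICO had 13.8, 11.6 and 11.2 CPM alone and 5.07, 7.37 and 5.15 in co-culture, with no overlap. Its log2 change there was -1.07 ± 0.23 (2.1-fold lower, adjusted p = 0.00276). In HSC it had 32.3, 52 and 31 CPM on plastic, above all other libraries, and 17.5, 12.9 and 14 at day 0. HSC alone in Matrigel had 15, 20.1 and 15.8 CPM and co-cultured HSC 18.3, 14.5 and 11.7, which overlap each other and day 0. Adamts9 rose on plastic by 1.44 ± 0.24 (adjusted p = 0.000167), and co-culture and Matrigel alone differed by -0.15 ± 0.24 (adjusted p = 0.663).

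Adam19 (ENSMUSG00000011256, chromosome 11), the membrane sheddase, shared its high groups with Timp1. It had 11.8, 13.1 and 16.4 CPM at day 0 and 15.1, 14.6 and 13 alone in Matrigel, which overlap. Plastic had 211, 235 and 225 CPM and co-cultured HSC 186, 179 and 134, both far above the former groups with no overlap. Adam19 rose on plastic by 4.08 ± 0.17 (16.9-fold, adjusted p = 8.73e-10) and was higher in co-culture than in Matrigel alone by 3.59 ± 0.16 (12-fold, adjusted p = 1.94e-08). Matrigel alone and day 0 differed by 0.05 ± 0.16 (adjusted p = 0.809). Co-culture lay below plastic (-0.44 ± 0.14, adjusted p = 0.0262), a call lost without co-culture replicate 3 (0.0757) or plastic replicate 2 or 3 (0.0564 and 0.0572), and the difference was 0.08 in the other direction after subtraction of the organoid part (adjusted p = 0.738).

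In ICO alone Adam19 had 1.04, 0 and 0 counts, and in co-cultured ICO 8.59, 7.11 and 13.7 counts, or 0.489, 0.491 and 0.685 CPM. The summed counts of 29 and 1 give a ratio of 21.6 after scaling (exact 95% interval 3.59 to 883, for counting error only). Adam19 did not pass the low-count filter in this comparison, and without the filter it was called (4.1 ± 1.31, adjusted p = 0.0209). By the median of 6 stellate genes, the HSC share was 0.279%, 0.148% and 0.354% in co-cultured ICO and 0.254%, 0.249% and 0.0437% in ICO alone, which overlap. In co-culture this share times the level in co-cultured HSC gives 0.464, 0.246 and 0.588 CPM of Adam19. HSC alone in Matrigel had 681 counts beside 1 in ICO alone, a ratio of 551 (exact 95% interval 98.6 to 21800).

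The response to co-culture differed between cell types for 4 of 9 tested members, in a test of the difference where 17.2% of 16233 genes were called (9.08% higher and 8.08% lower). These were Timp1 (4.69 ± 0.5 higher in HSC on the log2 scale), Timp3 (3.84 ± 0.71), Adamts4 (3.66 ± 0.59) and Timp2 (-1.37 ± 0.22). In ICO the fitted differences of these 4 genes were 0.3 ± 0.16, -0.04 ± 0.1, 0.54 ± 0.54 and 0.11 ± 0.09, and none passed. For Adamts9, called in ICO and not in HSC, the difference was 0.82 ± 0.34 (adjusted p = 0.12), which did not pass, and it was 1.08 and passed after subtraction of the organoid part (adjusted p = 0.0467). Adamts1 (-0.55 ± 0.26, adjusted p = 0.172) passed without HSC Matrigel replicate 1 (-0.69, adjusted p = 0.0429). Between the cell types alone in Matrigel, 6 members were higher in HSC (Timp2, Adamts1, Adamts2, Adamts4, Adamts5 and Adam19) and Timp3 was 8.07-fold lower, where 56.7% of genes were called (30.9% higher and 25.8% lower).

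**Figure D5:**
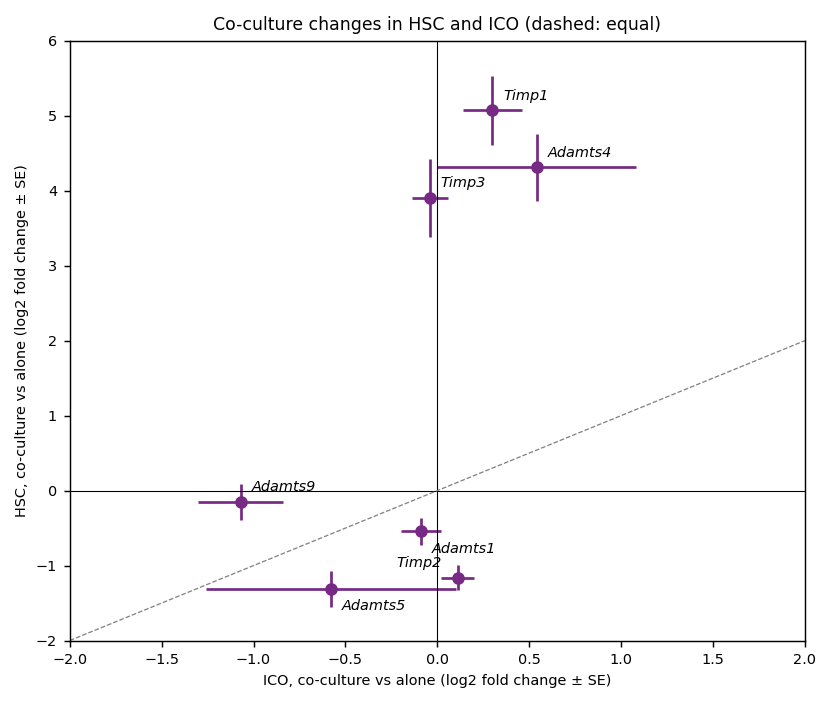
Co-culture change in HSC (vertical) against that in ICO (horizontal) for the 7 members tested in both, as log2 fold change with bars of 1 SE and a dashed line of equal change. Timp1, Timp3 and Adamts4 lie high above the line, and Adamts9 lies to the left with a change of -1.07 in ICO.

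Other genes of the same system were described from lists of related genes. Their counts stand beside 27.5% of all genes higher and 30.5% lower on plastic against day 0, and 17.3% higher and 13.8% lower in co-culture against Matrigel alone. Of 14 other ADAMTS genes, 8 could be tested in HSC. On plastic 2 were higher than at day 0 and 6 lower (median log2 change -1.35, over all genes -0.1), and in co-culture against Matrigel alone 3 were higher and 2 lower (median -0.29, over all genes 0.03). Adamts12, a protease of cartilage matrix, was also highest on plastic and in co-culture: it had 13.4 CPM at day 0, 88.5 on plastic, 13.4 alone in Matrigel and 50.9 in co-culture, and co-culture was above Matrigel by 1.97 ± 0.2 (adjusted p = 9.59e-06). Adamts13, the von Willebrand factor-cleaving protease that HSC make in liver, had 500 CPM at day 0, 160 alone in Matrigel, 1.67 on plastic and 1.81 in co-culture. Its log2 change was -8.16 ± 0.77 on plastic against day 0 (adjusted p = 1.1e-05) and -6.27 ± 0.73 in co-culture against Matrigel alone (adjusted p = 0.000164). Of 7 ADAMTS-like genes, which code for matrix proteins without a protease domain, 4 fell on plastic (median -2.02, beside 30.5% of all genes lower) and 4 in co-culture against Matrigel alone (median -1.62, beside 13.8%), and none rose in either, among them Adamtsl4 with 127 CPM at day 0, 5.19 on plastic, 126 in Matrigel and 12.1 in co-culture.

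Of 8 other ADAM genes, 7 were tested, with 4 higher on plastic (median 0.37, beside 27.5% of all genes higher), 2 higher in co-culture against Matrigel alone (median 0.18, beside 17.3%) and none lower in either. In so short a list, 2 of 7 is near the share over all genes. Adam9 had 104 CPM at day 0, 1459 on plastic, 99.1 alone in Matrigel and 221 in co-culture, so unlike Timp1 its co-culture level lay below that on plastic (log2 change -2.74 ± 0.18, adjusted p = 2.19e-07). Adam8, a gene of myeloid cells, had 0.749 CPM at day 0 and 50.5 CPM in ICO alone. In HSC alone in Matrigel, the group with the highest sum of macrophage markers (mostly Lyz2), it had 93.9 CPM. The part of either cell type in that level was not tested. Of 15 tested matrix metalloproteinases, the main targets of TIMPs, 4 rose and 4 fell on plastic (median 0.05), near the 27.5% and 30.5% over all genes. In co-culture against Matrigel alone 6 rose and 1 fell (median 1.03), beside 17.3% and 13.8% of all genes. Mmp3 (stromelysin) had 3.59 CPM at day 0, 448 on plastic, 13.3 alone in Matrigel and 117 in co-culture, and Mmp9 (gelatinase B) had 59.8 CPM in co-culture and at most 0.492 CPM in the other 3 HSC groups. Mmp2, which Timp2 helps to activate, was lower in co-culture (263 CPM) than in Matrigel alone (515 CPM) (log2 change -0.93 ± 0.24, adjusted p = 0.0109).

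Of 8 tested substrates of the ADAMTS enzymes, 5 were higher and 1 lower in co-cultured HSC than in HSC alone in Matrigel (median 2.67, over all genes 0.03), beside 17.3% and 13.8% of all genes. Vcan (versican) had 1.02 CPM at day 0, 51.7 on plastic, 2.02 alone in Matrigel and 107 in co-culture, and was higher in co-culture than alone by 5.75 ± 0.41 (adjusted p = 1.09e-06). Col1a1, whose procollagen Adamts2 processes, had 120 CPM alone in Matrigel and 3175 in co-culture (4.76 ± 0.24, adjusted p = 3.56e-08), whereas Adamts2 itself did not pass in that comparison. Dcn (decorin) was lower, with 21190 CPM alone and 4868 CPM in co-culture (-2.09 ± 0.3, adjusted p = 0.000157). Among 7 cofactors, activators and clearance receptors, 2 rose and 3 fell (median 0.45), beside 17.3% and 13.8% of all genes. Fbln1, which binds Adamts1 and aids its activity, went from 2.96 to 45.6 CPM (3.99 ± 0.3, adjusted p = 5.82e-07), and Reck, a membrane-bound metalloproteinase inhibitor, fell from 67.7 to 27.1 CPM (log2 change -1.27, adjusted p = 0.00422). In ICO, co-culture came with a rise of Col3a1 from 0.194 to 30 CPM and Mmp7 (matrilysin) from 89.9 to 1448 CPM (4 ± 0.39, adjusted p = 0.00246). Col3a1 had 10860 CPM in co-cultured HSC, and the estimated HSC share of co-cultured ICO was 0.279%, 0.148% and 0.354%. How much of the Col3a1 level in ICO is HSC RNA was not tested.

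Over the 18 libraries, the genes most like each member by Pearson correlation of log2(CPM + 1) among 11172 genes were listed as a description, with no test, since libraries share groups and organoid RNA. Timp1 was closest to Bcat1 (r = 0.983), Flnc and Chst11, and Adam19 to Fgf2 (0.994), Loxl2 and Glipr2. Adamts2 followed Gucy1a1, Pdgfra and Cers4 (each 0.995), and Adamts5 followed Arhgap24, Frmd4a and Itga1 (each 0.992). Adamts1 was closest to Oat (0.986), Adamts4 to Cox4i2 (0.98), Timp2 to Rxra (0.968), Adamts9 to Ticrr (0.945) and Timp3 to Arrdc4 (0.927). Timp3 thus had the weakest best match of the 9 members.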

How the data were processed

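Smart-seq2 libraries were made from bulk RNA, per the labels' protocols. The authors deposited 1 table of estimated counts with a column per library. Kallisto 0.46.1, DESeq2 1.36.0 and build GRCm39 are listed in the submitters' processing notes, without roles. Strand use is not given in the sources used here, so reads of overlapping genes may be divided between them.

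The counts, rounded to whole numbers, went into edgeR 4.0.16 (R 4.3.3) with TMM scaling, the default low-count filter and its robust quasi-likelihood test. In simulated data false calls exceeded the threshold in some comparisons, most in ICO, and small changes were often missed, most in the difference between cell types. P-values were Benjamini-Hochberg adjusted over all genes tested, with a threshold of 0.05. HSC comparisons used 1 fit of the 12 HSC libraries, the ICO comparison the 6 ICO libraries, and comparisons across cell types the 12 Matrigel libraries. Levels in CPM used TMM factors of all 18 libraries, with no pseudocount. SE is the absolute change divided by the square root of F.

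Genes for the organoid share needed 100 CPM or more in each ICO group and had less than 5 CPM in all libraries from day 0 and plastic. Alternatives were its covariate and subtraction, RLE scaling, other filters, DESeq2 1.42.0, other sets of libraries, the replicate number as a block and leaving out each library. Members and lists were chosen with earlier results of these data known. Comparisons of co-culture with day 0 and with plastic were added after seeing the data. All members are named. From each related list, genes were taken by size of change among those called with 10 CPM or more in 1 group, at most 2 per direction and comparison. Transcript lengths are of GENCODE vM21.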

Additional observations from a re-analysis of the deposited data

Results flagged for a closer look

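A difference between cell types in the change with co-culture drew attention to 4 members, each by a test of the difference itself (edgeR quasi-likelihood test over the 12 Matrigel libraries). For Timp1 the change was larger in HSC than in ICO by 4.69 ± 0.5 on the log2 scale (adjusted p = 2e-04): HSC went from 22.3 to 729 CPM and ICO from 15.7 to 19.6 CPM. Timp3 had a difference of 3.84 ± 0.71 (adjusted p = 0.00613), with 75.2 and 1084 CPM in HSC and 640 and 630 CPM in ICO. Without HSC Matrigel replicate 1, the library of that group with the highest organoid share, it was 4.5 (adjusted p = 0.00121). Adamts4 had a difference of 3.66 ± 0.59 (adjusted p = 0.00135), with 4.39 and 84.4 CPM in HSC and 0.836 and 1.18 CPM in ICO. Timp2 had a difference of -1.37 ± 0.22 (adjusted p = 0.00125), with 219 and 95.2 CPM in HSC and 78.2 and 85.4 CPM in ICO. In each case the first of a pair of levels is from culture alone and the second from co-culture, with 3 libraries each. All 19 alternatives kept the direction and the call for Timp1, Timp2, Timp3 and Adamts4, with a limit on organoid subtraction for Timp3 given below. The organoid share of HSC alone in Matrigel was 32.5%, 13% and 3.84% in replicates 1 to 3, and summed macrophage markers were 2483 to 3420 CPM in HSC alone and 129 to 206 CPM in co-culture. The part of macrophages, or of mesothelial cells or portal fibroblasts, in these differences was not tested. Subtraction of the organoid part removed all Timp3 from HSC alone in Matrigel, so that its difference became 17.07, a value that depends on the prior count and says nothing of stability.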

How the results depend on the processing

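Of 1171 alternative fits of 79 member results, 1097 kept direction and side of the threshold, 37 lost a call, 13 gained 1 and 24 changed sign. Where a sign changed, the new value passed no test. For Adam19 in Matrigel against day 0 it was -0.01 without a filter and -0.09 to 0.19 when 1 library was left out (-0.09 and -0.02 without day 0 replicates 1 and 2). For Adamts4 in Matrigel against plastic it was 0.01 with the stricter filter, 0.17 after organoid subtraction, 0.01 with the share as a covariate and -0.43 to 0.49 with 1 library left out (0.13 without Matrigel replicate 2 and 0.49 without plastic replicate 1). For Adamts2 there it was -0.08 to 0.25 with 1 left out (-0.08 without Matrigel replicate 3 and -0.05 without plastic replicate 3). For Adamts9 in co-culture against Matrigel it was 0.08 after subtraction and -0.33 to 0 with 1 library left out (0 without co-culture replicate 3). In ICO, with 1 library left out, it was -0.12 to 0.05 for Timp3 and -0.21 to 0.02 for Adamts1, both highest without ICO Matrigel replicate 3. For Adamts9 in co-culture against day 0 it was -0.02 with RLE, without a filter and with DESeq2, -0.03 with only the libraries compared and -0.14 to 0.19 with 1 library left out (-0.14 without co-culture replicate 1 and -0.11 without day 0 replicate 2). In co-culture against plastic, subtraction gave 0.11 for Adamts2 and 0.08 for Adam19, and the covariate gave 0 for Timp2 and 0.16 for Adamts2.

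Counts of calls moved as follows. Co-culture against Matrigel alone in HSC had 5290 genes, and 3453 with only those libraries (1605 higher and 1848 lower, beside 2949 and 2341). In ICO, 2272 genes became 546 with all 18 libraries and between 1427 and 1948 when 1 library was left out, and 2 members were called without a filter and with all 18 libraries, Adamts9 and Adam19. With the organoid share as a covariate, co-culture against day 0 had 5372 genes in place of 9140 and 4 members in place of 8, and against plastic 3850 in place of 7239. The share was at most 0.284% at day 0 and on plastic and 3.84% to 42.1% in HSC from Matrigel. As a covariate it can hardly be told apart from these contrasts. Timp2, Timp3, Adamts2 and Adamts4 each kept their call in co-culture against day 0 in 14 of 15 alternatives, all but this covariate. The cause was not tested. The replicate block changed 1 member call, Adamts1 in co-culture against Matrigel (adjusted p = 0.052). Pairing was checked on log2(CPM + 1) after each group's mean was subtracted gene by gene. These remainders correlated between -0.357 and 0.086 for same-numbered libraries, and 2 of 18 were closest to their own number. For co-cultured HSC and ICO, whose titles share codes, the values were 0.052, 0.055 and -0.03. The numbers were therefore not taken as pairs. Before subtraction, libraries of the same group correlated at 0.959 to 0.992.

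Depth limits Timp4 in every group and Adamts2, Adamts4, Adamts5 and Adam19 in ICO, where a few counts carry each value.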
